A study of Rattus norvegicus with 11 samples.

Results

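The 8 genes described here encode the RNAs of major histocompatibility complex (MHC) class II antigen presentation in the rat, and they were found by symbol among the 32623 genes of the deposited table, each on 1 row. They are RT1-Da, RT1-Db1, RT1-Ba and RT1-Bb, RT1-DMa and RT1-DMb, Cd74 and Ciita. The samples were WBCs (peripheral leukocytes left after lysis of red blood cells) of Wistar rats, which the study's methods give as males of 7 weeks at the start. In 4 rats collagen-induced arthritis (CIA) was raised with type II collagen in incomplete Freund's adjuvant (IFA-CII) and a boost on day 7, and each of these rats gave an early sample classed as Nampt++ (about day 8) and a later sample classed as Nampt+ (about day 14) by a PCR of Nampt. The remaining 3 rats were healthy and untreated controls, whose day of sampling is not given in the sources used here. In the CIA rats status and day of sampling cannot be told apart, and the classes were made by the authors on blood of the same rats. One deposited extraction note speaks of retinas, in conflict with the sample source, and RNAs of leukocytes were abundant, such as S100a9 of neutrophils at 1323 to 25724 FPKM and Cd3d of T cells at 70.1 to 236 FPKM.

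Class II molecules are pairs of an alpha and a beta chain that show peptides from engulfed proteins to CD4+ T cells. The chains are made with the invariant chain, encoded by Cd74, which fills their groove until proteases of the endosome cut it away and the DM molecule exchanges its last fragment for peptide. Their genes are switched on together by Ciita, a transactivator that binds no DNA itself and acts through factors sitting on the X and Y boxes of their promoters, and in blood they are known mainly from B cells, monocytes and dendritic cells.

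Promoter sequences were looked up in RefSeq (assembly GRCr8), where 6 of the 8 genes matched: RT1-Da, RT1-Db1, RT1-Ba, RT1-Bb, RT1-DMa and Cd74. The stretches of 55 bases printed here are shown because they carry the boxes through which the class II genes are known to be switched on. Each is printed 5′ to 3′ on the strand of the gene. The last 6 capitals mark GATTGG, which holds the Y box core ATTGG, and the first 8 capitals, where there are any, mark a match to a loose X box, CTNGNNAC in RT1-Da, RT1-Db1 and RT1-Ba and NNAGNNAC in RT1-Bb.
RT1-Da (chr20:4515320-4515374, + strand): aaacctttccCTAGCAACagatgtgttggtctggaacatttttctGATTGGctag
RT1-Db1 (chr20:4560234-4560288, - strand): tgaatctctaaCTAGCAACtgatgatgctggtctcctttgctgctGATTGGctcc
RT1-Ba (chr20:4576968-4577022, + strand): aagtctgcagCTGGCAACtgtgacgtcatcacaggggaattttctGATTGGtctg
RT1-Bb (chr20:4604171-4604225, - strand): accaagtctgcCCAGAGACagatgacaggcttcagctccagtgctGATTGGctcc
RT1-DMa (chr20:4712391-4712445, - strand): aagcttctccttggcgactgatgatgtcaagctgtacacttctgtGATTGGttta

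In the 4 classical chain genes the marked boxes were 26 or 27 bases apart, and the Y box began 44 to 81 bases before the start of the transcript. Both strands of the 250 bases before each start were searched. ATTGG alone was common, in all 6 members found and in 34% of 33469 promoters, and GATTGG was in 5 of the 6 members and in 13.3% of promoters. The longer CTGATTGG, chosen after the sequences were seen, was in the 4 classical chain genes and in 3.19% of promoters. The stricter X box CCNAGNNAC followed by ATTGG on the same strand at 15 to 30 bases was found in RT1-Da and RT1-Bb and in 0.206% of promoters. CTNGNNAC followed by ATTGG in the same way, also chosen after the sequences were seen, was found in RT1-Da, RT1-Db1 and RT1-Ba and in 0.645% of promoters, and NNAGNNAC followed by ATTGG in RT1-Da, RT1-Db1 and RT1-Bb and in 2.49%. A match is a run of letters in this window, and the motifs overlap each other.

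The levels of the class II RNAs were high and spread over a wide range. FPKM (fragments scaled by transcript length and by the library's total) takes account of gene length. How reads shared by similar genes were counted is not given in the sources used here, so the order below is that of the listed values. The mean over the 11 samples was 2760 FPKM for Cd74, 517 for RT1-Da, 348 for RT1-Ba, 174 for RT1-Db1, 111 for RT1-Bb, 60.1 for RT1-DMa, 40.9 for RT1-DMb and 7.19 for Ciita. In the order of these means Cd74 stood above RT1-Da in 11 of 11 samples, RT1-Da above RT1-Ba in 10, RT1-Ba above RT1-Db1 in 11, RT1-DMa above RT1-DMb in 10 and RT1-DMb above Ciita in 11. The places of RT1-Bb were not firm, since it stood below RT1-Db1 in 6 samples and above RT1-DMa in 7.

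**Figure D1:**
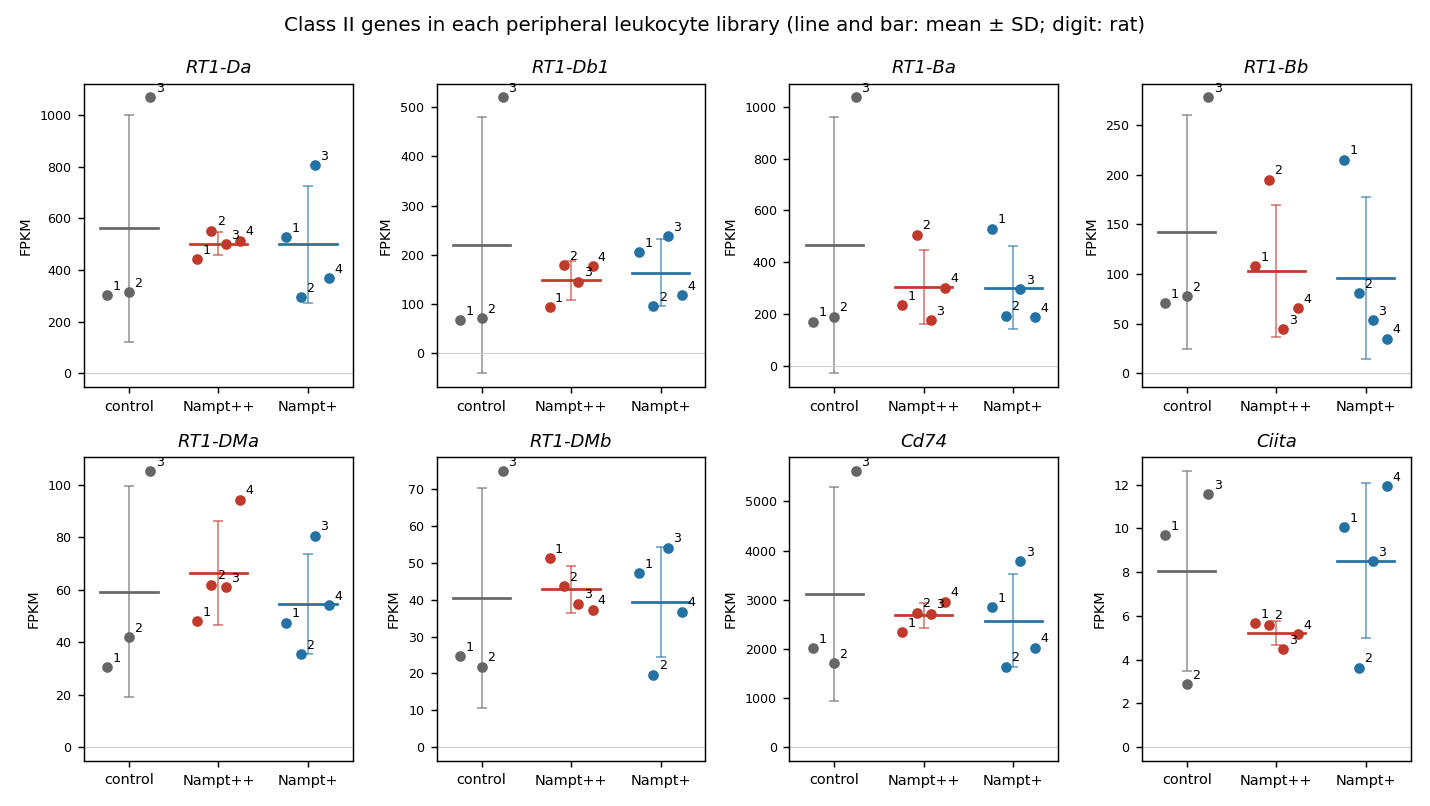
FPKM of the 8 class II genes (vertical axes, linear) in each library of the control, Nampt++ and Nampt+ groups, with the mean as a line, the SD as a bar and the rat's number beside each point; control rats are other animals than the CIA rats with the same number. Control 3 lies above every other library for each gene but Ciita, and the Nampt++ points of RT1-Da, Cd74 and Ciita lie close together. With haemoglobin genes left out of the scaling (not drawn), the Nampt++ samples spread wider. They were then at 475 to 879 FPKM for RT1-Da, 2512 to 4357 for Cd74 and 5.59 to 8.92 for Ciita.

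No member passed the thresholds of the study in any of the 3 comparisons, which ask that the group means in FPKM differ by more than 2-fold, with p under 0.05 before adjustment. Between Nampt+ and Nampt++ samples 0 of 8 members passed, beside 0.642% of 11219 genes tested. Between Nampt++ samples and controls 0 of 8 passed, beside 0.686% of 11219 genes, and between Nampt+ samples and controls 0 of 8, beside 0.497% of 11269 genes. At an unadjusted p under 0.05 by edgeR's quasi-likelihood test, the first comparison held 1 member, Ciita. The comparisons with controls held none, beside 1.57% of genes for Nampt++ and 0.87% for Nampt+. Exact permutation of the levels could not reach that p in the 16 tests against controls. In the 8 tests of Nampt+ against Nampt++ its lowest p was 0.143, for Ciita. Both tests took the samples as independent, although each CIA rat was sampled at both statuses, so this permutation overstates what paired samples could reach. By edgeR 0 genes passed an adjusted p of 0.05 in each comparison, against 256, 176 and 98 genes at the unadjusted p, and DESeq2 gave 5, 5 and 4 genes past the adjusted p, with no member among them. The members' median log2 fold change was -0.005 for Nampt+ against Nampt++, -0.20 for Nampt++ against control and -0.10 for Nampt+ against control, beside a median near 0 over all genes tested in each.

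**Figure D2:**
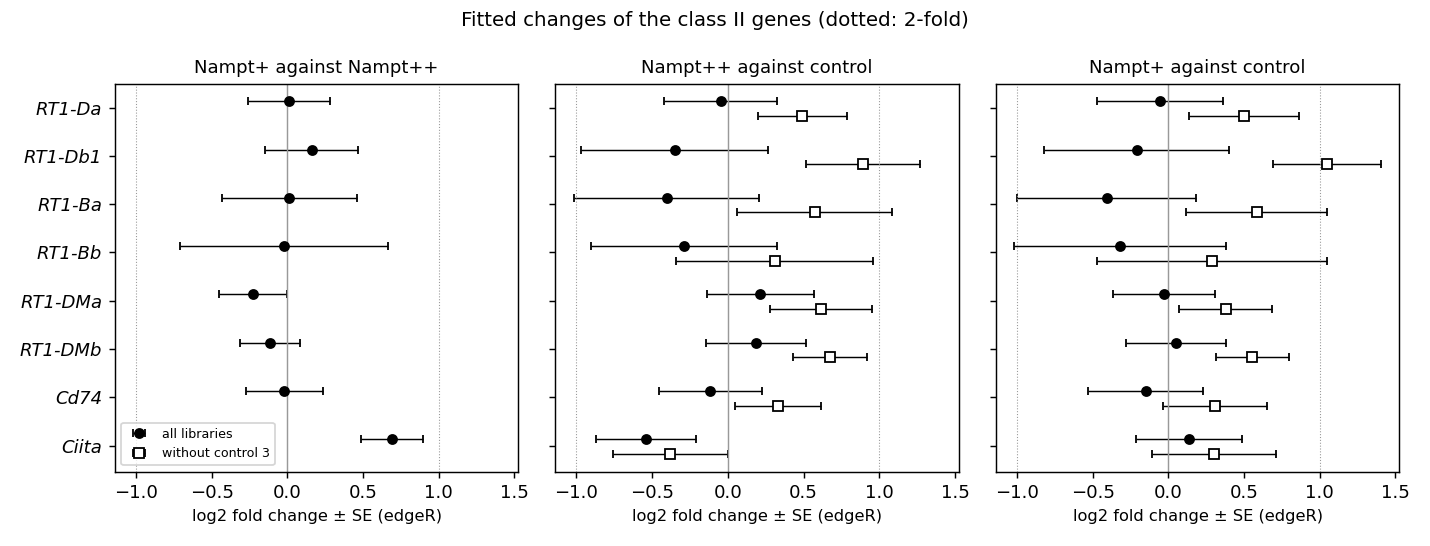
Log2 fold change ± SE by edgeR (horizontal axes) of the 8 genes in the 3 comparisons, with filled circles for all libraries, open squares for the fits without control 3 and dotted lines at 2-fold. The circles lie between -0.54 and 0.69, and without control 3 the squares of 7 genes in the middle panel and of all 8 in the right panel lie above 0.

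The D molecule is the rat's counterpart of human HLA-DR. RT1-Da, its alpha chain gene (ENSRNOG00000032844, 20:4127644-4132616 in the deposited coordinates, whose build is not given in the sources used here), stood at 302, 314 and 1068 FPKM in controls 1 to 3, at 442, 551, 499 and 513 for rats 1 to 4 at Nampt++ status and at 527, 295, 805 and 368 in the Nampt+ samples. Controls 1 and 2 were below every Nampt++ sample and control 3 was above every other sample, so the groups overlapped. The group means were 561 ± 438 (SD, n = 3), 502 ± 45.3 (n = 4) and 499 ± 226 FPKM (n = 4), and the log2 fold change was 0.01 ± 0.27 (SE) for Nampt+ against Nampt++, -0.05 ± 0.38 for Nampt++ against control and -0.05 ± 0.41 for Nampt+ against control.

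RT1-Db1, the beta chain gene (ENSRNOG00000033215, 20:4087618-4097190), stood at 67.4, 71.6 and 520 FPKM in the controls, at 94.2, 179, 146 and 178 in the Nampt++ samples and at 205, 95.5, 238 and 118 in the Nampt+ samples. All 8 CIA samples were above controls 1 and 2 and below control 3, so the direction against the controls turned on control 3. With haemoglobin genes left out of the scaling, the Nampt++ sample of rat 1 was at 101 FPKM, below control 2 at 104. The log2 fold change was -0.35 ± 0.62 (SE) for Nampt++ against control and -0.21 ± 0.61 for Nampt+ against control. Without control 3 these were 0.89 ± 0.38 (unadjusted p just over the threshold, ratio of means 2.14) and 1.05 ± 0.36 (unadjusted p = 0.0217, adjusted p = 1.00, ratio of means 2.36, edgeR), and the later one then passed the study's thresholds. A gene of like name, RT1-Db2, was listed at 0.52 to 5.22 FPKM. The sequences of RT1-Db1 and RT1-Db2 were not compared here, and how reads shared by them were counted is not given in the sources used here. On the scale of log2(FPKM + 1), with all 3 controls, the difference from the controls was 0.08 in Nampt++ and 0.17 in Nampt+ samples for RT1-Db1 alone. With both genes summed it was 0.06 (exact permutation p = 0.971) and 0.15 (exact permutation p = 0.914), so the sum changed it little.

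The B molecule is the counterpart of human HLA-DQ. RT1-Ba, its alpha chain gene (ENSRNOG00000000451, 20:4066132-4070721), stood at 171, 189.5 and 1036 FPKM in the controls, at 234, 507, 177 and 302 in the Nampt++ samples and at 530, 193, 295 and 189 in the Nampt+ samples. RT1-Bb, its beta chain gene (ENSRNOG00000032708, 20:4039413-4049711), stood at 70.9, 77.7 and 278 FPKM in the controls, at 108, 195, 44.6 and 65.6 in the Nampt++ samples and at 215, 80.7, 53.3 and 34.8 in the Nampt+ samples. For RT1-Bb the samples of rats 3 and 4 were the 4 lowest of all 11, at both times, while the lowest for RT1-Ba was control 1.

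The ratio of RT1-Ba to RT1-Bb kept its rats apart at both times. It was 2.17 and 2.60 in the Nampt++ samples of rats 1 and 2 and 2.46 and 2.39 in their Nampt+ samples, against 3.97 and 4.60 and then 5.53 and 5.42 in rats 3 and 4. In the controls it was 2.41, 2.44 and 3.73. Between Nampt+ and Nampt++ samples the log2 ratio differed by 0.19 (exact permutation p = 0.571), less than the spread between rats. The split between rats was noticed in these values and was not tested.

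RT1-Da and Cd74, which encodes the invariant chain, kept close to each other. Cd74 (ENSRNOG00000018735, 18:56071478-56080849) stood at 2007, 1709 and 5616 FPKM in the controls, at 2340, 2733, 2713 and 2959 in the Nampt++ samples and at 2847, 1638, 3781 and 2020 in the Nampt+ samples. Its ratio to RT1-Da stayed between 4.69 and 6.63 in the 11 samples, with a median of 5.43, although both RNAs varied over 3-fold. Across the 11 samples Pearson's r of log2(FPKM + 1) was 0.98 for RT1-Da with Cd74 and 0.95 for RT1-Da with RT1-Db1, and 0.97 and 0.91 over the 10 samples without control 3, while RT1-Da with RT1-Bb gave 0.45 and then 0.14. RT1-Ba with RT1-Bb gave 0.85 and then 0.78, and the ratio of RT1-Da to RT1-Db1, at 2.05 to 4.69, spread about as widely as that of RT1-Ba to RT1-Bb, at 2.17 to 5.53. These points share library, depth and the share of haemoglobin reads, and 8 of them come from 4 rats.

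**Figure D3:**
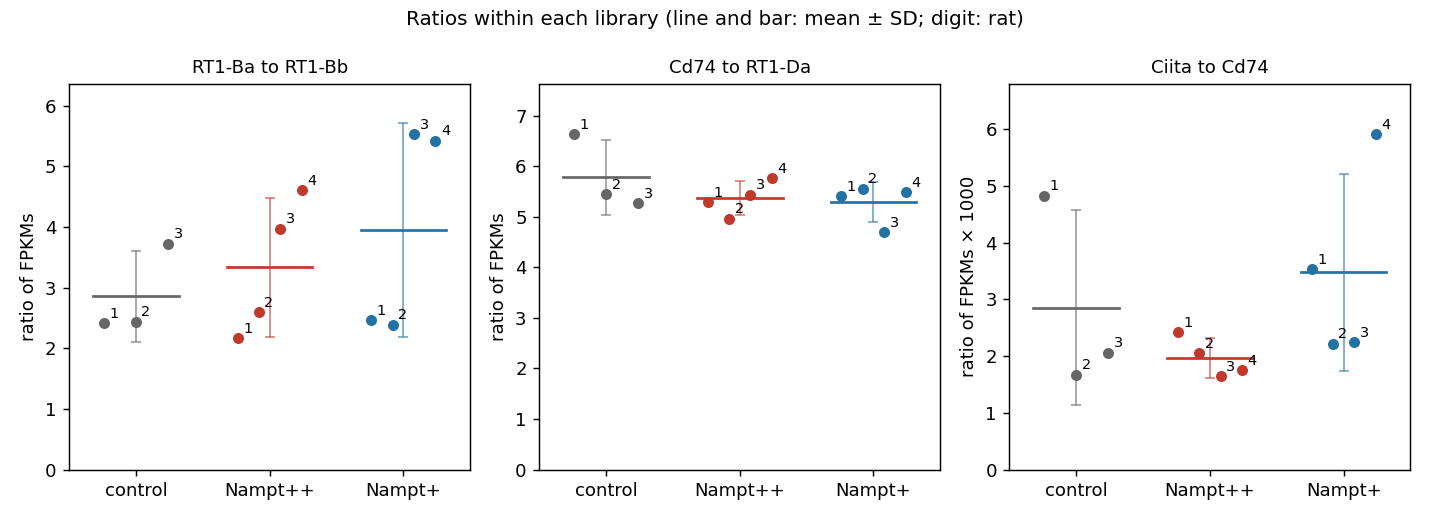
Ratios of FPKMs within each library (vertical axes from 0; the right panel is multiplied by 1000) for RT1-Ba to RT1-Bb, Cd74 to RT1-Da and Ciita to Cd74, with mean, SD and the rat's number. In the left panel rats 3 and 4 lie at 3.97 to 5.53 and rats 1 and 2 at 2.17 to 2.60 in both CIA groups, the middle panel is narrow, and in the right panel the Nampt++ points lie low and close together.

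DM is the peptide editor of the endosome and is not itself shown on the cell surface. RT1-DMa (ENSRNOG00000047854, 20:3935529-3938915) stood at 30.4, 42.0 and 105 FPKM in the controls, at 47.9, 62.0, 61.0 and 94.4 in the Nampt++ samples and at 47.5, 35.5, 80.7 and 54.1 in the Nampt+ samples. RT1-DMb (ENSRNOG00000051002, 20:5227045-5234290) stood at 24.7, 21.9 and 74.9 FPKM in the controls, at 51.3, 43.6, 38.9 and 37.3 in the Nampt++ samples and at 47.2, 19.7, 54.1 and 36.7 in the Nampt+ samples. They were the members with a positive log2 fold change for Nampt++ against control, 0.22 ± 0.35 (SE) and 0.18 ± 0.33, both below their error, and the fold change for Nampt+ against Nampt++ was -0.23 ± 0.23 and -0.12 ± 0.20.

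Ciita (ENSRNOG00000002659, 10:5213350-5260608), the transactivator, was the member that differed most between the CIA groups. Its level was low, and the study's methods hold differences between RNAs at such low FPKM to be unreliable. It stood at 5.66, 5.59, 4.47 and 5.17 FPKM in the Nampt++ samples and at 10.1, 3.64, 8.49 and 11.9 in the Nampt+ samples of the same rats, with 9.69, 2.86 and 11.6 in the controls. The Nampt+ samples of rats 1, 3 and 4 were above all Nampt++ samples and that of rat 2 was below them, so the groups overlapped. With haemoglobin genes left out of the scaling, the Nampt+ sample of rat 2 stood at 6.36 FPKM. That was above the Nampt++ samples of rats 1, 3 and 4 (6.08, 5.59 and 5.61) and below that of rat 2 (8.92), so the groups still overlapped. The log2 fold change was 0.69 ± 0.20 (SE; unadjusted p = 0.00818, adjusted p = 1.00, edgeR), with a ratio of means of 1.63, under the threshold of 2. Of all genes tested, 2.28% had an unadjusted p under 0.05 in this comparison and 1.35% were higher at that p. The exact permutation test of the levels, on FPKM as listed and so not adjusted for haemoglobin reads, gave p = 0.143, where the smallest possible was 0.0286. Neither test paired the samples of a rat. With the rat as a block, edgeR gave 0.68 ± 0.24 (SE, unadjusted p = 0.0314), and 0 genes passed the adjusted p of 0.05.

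Against the controls Ciita gave a log2 fold change of -0.54 ± 0.33 (SE; adjusted p = 1.00, edgeR) in the Nampt++ samples and 0.14 ± 0.35 in the Nampt+ samples. Control 2 decided the first of these: without it the change was -0.87 ± 0.20 (unadjusted p = 0.00378, adjusted p = 0.546, ratio of means 0.491, edgeR), which passed the study's thresholds, and the value for Nampt+ became -0.19. Ciita with Cd74 gave a Pearson's r of 0.51 over the 11 samples and 0.34 over the 10 without control 3, as a description. Per 1000 FPKM of Cd74 there were 2.85 ± 1.72 FPKM of Ciita in the controls (SD, n = 3), 1.96 ± 0.35 in the Nampt++ samples (n = 4) and 3.48 ± 1.73 in the Nampt+ samples (n = 4). The log2 ratio differed by 0.72 between Nampt+ and Nampt++ samples (exact permutation p = 0.0857, adjusted p = 0.968 over 18 tests of ratios).

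Control 3 stood apart for the whole set. It was the highest of 11 samples for 7 of 8 members and second for Ciita, and held 7.48 times the mean of controls 1 and 2 for RT1-Db1, 5.74 times for RT1-Ba, 3.02 times for Cd74 and 1.84 times for Ciita. After the 11 haemoglobin genes, which took 6.84% to 42.8% of the counts, were left out of the scaling, it was still the highest for 7 members and the third for Ciita. Total counts were 65340027 to 85819418 per library, and the lowest count of a member was 1406, for Ciita in control 2. Counting error was not set apart from the spread between rats. The summed B cell markers were also highest in control 3, and its haemoglobin share was 16.2%, against 30.1% and 30.9% in the other controls.

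Compared with controls 1 and 2 alone, in FPKM as listed, each Nampt++ sample was above both for 5 of 8 members, beside 11.1% of all genes tested. Each Nampt+ sample was above both for 1 of 8, beside 1.44%. With haemoglobin genes left out of the scaling, rat 1 at Nampt++ status was below control 2 for RT1-Db1 (101 against 104 FPKM). It was also below control 2 for RT1-DMa (51.5 against 60.7) and below control 1 for Cd74 (2512 against 2872). RT1-Da and RT1-DMb stayed above both controls in every Nampt++ sample, as did RT1-Db1 and RT1-DMa in every Nampt+ sample. The share of all genes was not counted on that scale. Without control 3 the log2 fold changes of Nampt++ samples were positive for 7 members, from 0.31 for RT1-Bb to 0.89 for RT1-Db1, with Ciita at -0.38, and those of Nampt+ samples were positive for all 8, from 0.29 for RT1-Bb to 1.05 for RT1-Db1. This view leaves out a library after its values were seen and is a description; the 2 controls left could not bear an exact test at p under 0.05.

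Within rats the members moved in opposite directions. From the Nampt++ to the Nampt+ sample, rat 3 was higher for all 8 members and rat 2 lower for all 8, with RT1-Da at 1.61 times and 0.535 times its earlier level. In FPKM as listed, rat 1 was higher for 6 members, with RT1-Ba at 2.26 times, and rat 4 only for Ciita, at 2.31 times. With haemoglobin genes left out of the scaling, rat 1 was also higher for RT1-DMa (51.5 to 64.0 FPKM) and RT1-DMb (55.1 to 63.7). Rat 4 was then also higher for RT1-DMb (40.5 to 43.1), and the directions in rats 2 and 3 stayed. These changes rest on the labels of rats 1 and 2. RT1-CE10, a class I gene chosen after its values were seen, stood at 9.28 and 68.0 FPKM in the Nampt++ samples of rats 1 and 2 and at 77.7 and 3.51 in their Nampt+ samples, whereas RT1-CE3, another class I gene chosen in the same way, stood at 34.0 and 2.14 FPKM and then at 23.8 and 1.82. RT1-T24-4 and RT1-N2, class I genes also chosen after their values were seen, stood at 177 and 92.2 and at 0.179 and 2.53 FPKM in the Nampt++ samples, and then at 109 and 146 and at 5.77 and 0.0763. Over 11219 genes the deviations of rats 1 and 2 from the group means correlated between their own samples at -0.27 and -0.24, against 0.24 and 0.08 in rats 3 and 4. Among all 4 Nampt+ samples, the one closest to rat 1 at Nampt++ status was from rat 2, and the one closest to rat 2 was from rat 1. For rat 4 it was from rat 3, and only rat 3 was closest to its own later sample. The Nampt+ sample of rat 2 also had the highest share of haemoglobin counts (42.8%) and the lowest summed T cell (326 FPKM) and NK markers (68.0 FPKM) of all 11, and its neutrophil markers summed to 15714 FPKM, against 3017 in that rat's Nampt++ sample. The part of these in the within-rat changes was not tested.

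Among the other genes of the pathway few passed the thresholds. Of 3 other class II and DO chains tested, RT1-Db2 was lower in Nampt++ samples than in controls, by -1.60 ± 0.55 (SE; unadjusted p = 0.019, adjusted p = 1.00, edgeR) at a level of 0.52 to 1.41 FPKM in the Nampt++ samples. The controls stood at 2.76, 0.78 and 5.22 FPKM, so control 2 lay within the Nampt++ samples, and without control 3 the change was -1.12 ± 0.58 and did not pass. DO is the inhibitor of DM in B cells, and its chains RT1-DOa and RT1-DOb had a log2 fold change of 0.64 ± 0.16 and 0.42 for Nampt+ against Nampt++. RT1-DOa stood at 18.7, 18.7, 24.4 and 22.0 FPKM in the Nampt++ samples and at 35.6, 19.5, 39.1 and 32.8 in the Nampt+ samples (unadjusted p = 0.00277, adjusted p = 1.00, edgeR), with a ratio of means of 1.52, so neither chain passed. As for Ciita, rat 2 was the lowest of the Nampt+ samples.

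The 9 antigen processing enzymes cut the invariant chain and the engulfed proteins. None passed in any comparison, but all 9 had positive log2 fold changes for Nampt++ against control (median 0.36) and negative ones for Nampt+ against Nampt++ (median -0.28), comparisons that share the Nampt++ samples. Ctsb and Ctsd, cathepsins and the most abundant, were at 273 to 960 and 98.8 to 254 FPKM, and their log2 fold changes for Nampt++ against control were 0.36 and 0.33. Control 3 was the lowest of all samples for Ctsb and Ctsd, but for Ctss, a cathepsin that cuts the invariant chain, it was the highest, and for Ifi30, a thiol reductase of the endosome, second at 185 FPKM (both chosen after their values were seen). Without control 3 the enzymes with a positive change for Nampt++ against control were 7 of 9 (median 0.28).

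None of the 7 RFX, NF-Y and CREB factors, which hold the X and Y boxes, passed in any comparison, with medians of 0.11 for Nampt+ against Nampt++ and -0.01 for Nampt++ against control. Rfx5 and Nfyc, the most abundant, were at 7.47 to 15.9 and 26.6 to 47.2 FPKM. Of 9 regulators of Ciita tested none passed, and Spi1 and Ifngr1, a myeloid and B cell transcription factor and a receptor chain of interferon gamma, gave 0.76 and 0.29 for Nampt++ against control. The 4 costimulation genes, whose products on the same cells give T cells a second signal, did not pass; Cd40 and Cd83 gave 0.25 and 0.20 for Nampt++ against control and -0.16 and -0.07 for Nampt+ against Nampt++. March1 and March8, ubiquitin ligases that take class II from the surface, gave log2 fold changes of 0.00 and 0.10 for Nampt+ against Nampt++ and did not pass.

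Markers of the cells that carry class II were read beside these results. None of 10 B cell markers passed, but 0 of 10 had a positive log2 fold change for Nampt++ against control (median -0.41) and 9 of 10 had one for Nampt+ against Nampt++ (median 0.25). Their summed level was 144 to 731 FPKM in controls, 232 to 344 in Nampt++ samples and 179 to 389 in Nampt+ samples, with control 3 at 731 and the other controls at 341 and 144. Without control 3, 5 of 10 had a positive change for Nampt++ against control (median 0.03) and 10 of 10 for Nampt+ against control (median 0.19). In the Nampt++ samples the most abundant were Cd79b at 88.8 to 157 FPKM and Fcrla at 24.2 to 47.8. The monocyte markers, 7 tested and none passing, had medians of 0.45 for Nampt++ against control (0.09 without control 3) and -0.49 for Nampt+ against Nampt++. Their sum was 4221 to 10727 FPKM in controls, 5714 to 12866 in Nampt++ samples and 5434 to 13839 in Nampt+ samples, most of it Lyz2, with Cd14 at 19.6 to 253 and 1 marker, Cd163, at 0 in every library (named after its values were seen). The low sum of control 3 was that of Lyz2, at 3978 of 4221 FPKM, and without Lyz2 control 1 was the lowest at 171, with control 3 at 243. In bulk samples fewer cells of a type and less RNA per cell cannot be told apart, and the part of these cells in the class II levels was not tested.

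**Figure D4:**
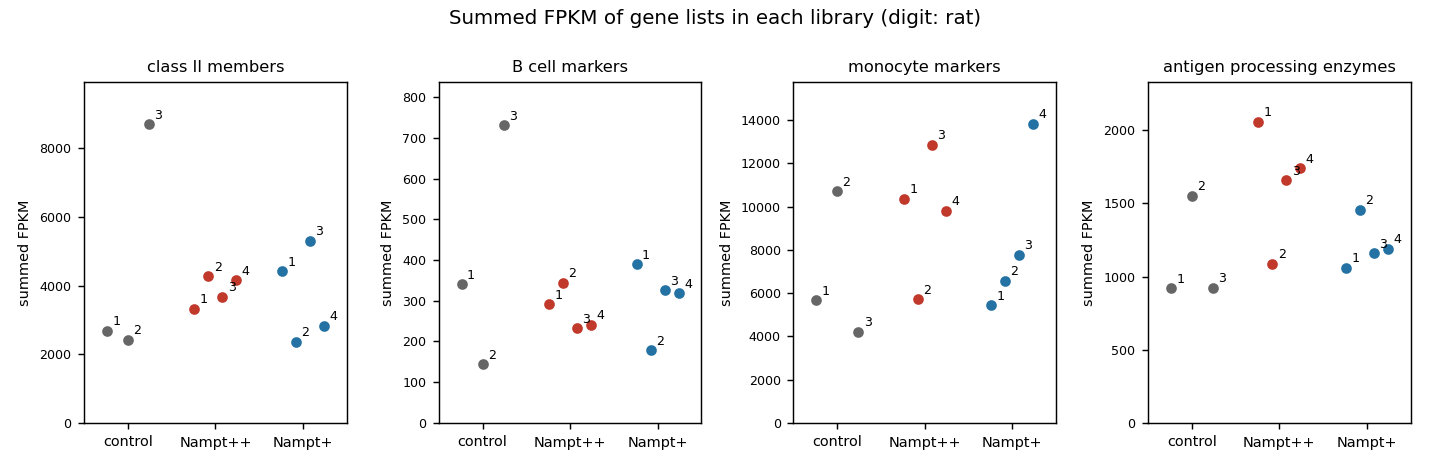
Summed FPKM (vertical axes from 0) of the class II members, B cell markers, monocyte markers and antigen processing enzymes in each library, with the rat's number. Control 3 is highest for class II (8709) and B cell markers (731) and lowest for monocyte markers (4221, of which Lyz2 made 3978).

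Of the other marker lists, the dendritic cell (6 tested), T cell (8), neutrophil (9) and NK (6) lists had no member past the thresholds, and of 5 platelet markers Ppbp passed as lower in Nampt++ samples than in controls, with a log2 fold change of -1.09 (-0.83 without control 3, not passing). Without control 3, 1 NK marker, Ncr1, passed as lower in both CIA groups than in controls, by -1.80 and -1.39. Controls 1 and 2 stood at 11.6 and 2.77 FPKM, against 0.83 to 4.45 in the CIA samples, so control 2 lay among them. The study's methods hold differences at such low FPKM to be unreliable. Neutrophil markers summed to 2169 FPKM in control 3, the lowest, and to 40468 in the Nampt++ sample of rat 1, the highest, and T cell markers were highest in control 3 at 1096. The part of these cells in the class II levels was not tested. Dendritic cell markers were low, summing to 36.5 to 110 FPKM, most of it Itgax, which other myeloid cells also carry.

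The genes whose levels went most like the mean z-score of the 8 members over the 11 samples were Mt-nd6 (Pearson's r = 0.97), Pym1 (0.96), Timm29 (0.96), AY172581 (0.96) and Rras2 (0.95), of 4923 genes with a mean of at least 10 FPKM. Mt-nd6, a mitochondrial gene, was at 131 to 576 FPKM, and each of the 5 was highest in control 3. These correlations are a description and rest on the same libraries as the members.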

How the data were processed

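Poly(A) RNA of WBCs of 4 CIA rats, each sampled at both statuses, and of 3 controls was sequenced by the authors in paired-end reads. The submitters' processing notes name cutadapt 1.9, HISAT2 2.0.4 and StringTie 1.3.4; the genome build, the annotation and the counting tool are not given in the sources used here. The authors deposited whole-number counts of reads per gene without normalization, and FPKM values scaled by gene length and library total, in which 0.0001 was read as 0. Haemoglobin reads lower every other FPKM of a library, and TMM scaling of the counts adjusts for this in the fits. The permutation of levels used FPKM as listed, without this adjustment.

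Pairs of groups were compared with edgeR 4.0.16 (TMM, quasi-likelihood test, R 4.3.3) on the deposited counts of genes whose mean FPKM was 1 or more, with Benjamini-Hochberg adjustment over all genes tested. The study's methods treat differences at low FPKM as unreliable, and Ciita, RT1-Db2 and Ncr1 lie in that range. An alternative filter asked for a mean of 10 FPKM or more. The SE is the log2 fold change divided by the square root of the F statistic. Levels on log2(FPKM + 1) and log2 ratios of FPKMs were compared by two-sided exact permutation, in which the smaller tail is doubled; its smallest p is 0.0286 for 4 against 4 and 0.0571 for 4 against 3. Both tests were tried on simulated data. The main edgeR fits and the permutation took Nampt++ and Nampt+ samples of the same rat as independent. P-values measure only the spread between these samples.

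The members, lists and motifs were chosen with earlier results of these data known. Genes named are the 8 members, list genes past the thresholds, the 2 highest of each list and the 5 genes most like the members' mean z-score, and any other is said to be chosen after its values were seen. Listed genes not found under their symbol (such as RT1-Hb, Cd79a and Ccr2) were not analysed here, and 1 B cell marker is not reported here and was left out of its list. Nampt++ and Nampt+ samples with one number come from the same rat, as the labels and methods say, and their deviations from the group means correlated at -0.27, -0.24, 0.24 and 0.08 in rats 1 to 4. Alternatives were other normalizations and filters, haemoglobin genes left out, DESeq2 1.42.0, limma 3.58.1, a joint fit of the 3 groups, a replicate block and leaving out each sample. The sum of RT1-Db1 and RT1-Db2, limma with the replicate block, the list counts without control 3 and some motifs were added after seeing the data.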

Additional observations from a re-analysis of the deposited data

How the results depend on the processing

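No member passed the thresholds under the other normalizations, filters, tools or blocks tried in which it was tested; Ciita, with a mean under 10 FPKM, was not tested at a mean FPKM of at least 10 in any of the 3 comparisons. No member had an adjusted p under 0.05 by DESeq2 or limma. The parts of the number of rats and of the depth in the precision were not tested. With the rat as a replicate block for Nampt+ against Nampt++, RT1-Da became -0.019 by edgeR, and the limma values, -0.11 for RT1-Da and -0.039 for RT1-Ba, were the same with and without the block, which changed no call. The log2 fold changes near 0 changed sign with the setting, and the cause was not tested. For Nampt+ against Nampt++, RT1-Da was -0.0069 without haemoglobin genes, -0.016 without a filter and -0.11 by limma with a pseudocount of 1 or 0.1, RT1-Ba was -0.0074 without a filter and -0.039 by limma with either pseudocount, RT1-Bb was 0.0067 and Cd74 0.025 at a mean FPKM of at least 10, and Cd74 was 0.0058 with upper quartile scaling. For Nampt++ against control, limma gave 0.10 for RT1-Da with either pseudocount and 0.084 and 0.087 for RT1-Db1, and for Nampt+ against control 0.17 for RT1-Db1 with either, and 0.021 and 0.023 for RT1-DMa. Controls and CIA rats share only a number, and the replicate block on it gave 0.13 for RT1-Da and 0.045 for RT1-Db1 in Nampt++ samples, and 0.24 for RT1-Da, 0.46 for RT1-Db1, 0.13 for RT1-Ba, 0.14 for RT1-DMa and 0.10 for Cd74 in Nampt+ samples.

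Leaving out each sample in turn gave 0 to 1 members past the thresholds in both comparisons with controls, Ciita for Nampt++ without control 2 and RT1-Db1 for Nampt+ without control 3. For Nampt+ against Nampt++ the log2 fold change then ranged from -0.18 to 0.17 for RT1-Da, -0.029 to 0.35 for RT1-Db1, -0.31 to 0.51 for RT1-Ba, -0.57 to 0.64 for RT1-Bb and -0.14 to 0.12 for Cd74. For Nampt++ against control it ranged from -0.32 to 0.49 for RT1-Da, -0.75 to 0.89 for RT1-Db1, -0.90 to 0.57 for RT1-Ba, -0.95 to 0.31 for RT1-Bb, -0.077 to 0.61 for RT1-DMa, -0.036 to 0.68 for RT1-DMb and -0.31 to 0.33 for Cd74. For Nampt+ against control it ranged from -0.33 to 0.50 for RT1-Da, -0.61 to 1.05 for RT1-Db1, -0.78 to 0.58 for RT1-Ba, -0.89 to 0.29 for RT1-Bb, -0.32 to 0.38 for RT1-DMa, -0.17 to 0.55 for RT1-DMb, -0.35 to 0.31 for Cd74 and -0.19 to 0.36 for Ciita. The log2 ratios for Nampt+ against Nampt++ ranged from -0.0062 to 0.40 for RT1-Ba to RT1-Bb, -0.33 to 0.15 for RT1-DMa to RT1-DMb, -0.30 to 0.18 for RT1-Da to RT1-Ba and -0.059 to 0.034 for Cd74 to RT1-Da. Against control those of Nampt++ ranged from -0.36 to 0.21 for RT1-Da to RT1-Db1, -0.22 to 0.25 for RT1-DMa to RT1-DMb, -0.17 to 0.0011 for Cd74 to RT1-Da and -0.70 to 0.065 for Ciita to Cd74, and those of Nampt+ from -0.55 to 0.010 for RT1-Da to RT1-Db1, -0.22 to 0.10 for RT1-DMa to RT1-DMb and -0.021 to 0.48 for RT1-Da to RT1-Ba.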
